A study of Macaca mulatta with 24 samples.

Results

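The adrenergic and antilipolytic receptors of fat are the cell-surface receptors through which catecholamines, metabolites, adenosine, prostaglandins and natriuretic peptides set the rate of lipolysis. They were listed by gene symbol as ADRB1, ADRB3, ADRA2A, HCAR1, HCAR2, ADORA1, PTGER3, NPR1 and NPR3. A gene identifier was matched to 8 of the 9 symbols among the 32386 genes counted, and HCAR1 was not analysed here. All 8 passed the filter on low counts and were tested. Omental white adipose tissue (WAT) was biopsied from 24 female rhesus macaques, 6 in each of 4 groups, in year 3 of treatment, and its RNA was sequenced after removal of ribosomal RNA. The labels give the age of every animal as 4 years, and the paper's methods describe an older age at biopsy. Control animals (C) carried cholesterol implants and ate monkey chow. T animals carried implants that released testosterone and ate chow, WSD animals carried control implants and ate a high-fat Western-style diet, and T+WSD animals received both testosterone and that diet. The study used these groups to ask how chronic testosterone excess and an obesogenic diet, alone and together, act on visceral fat.

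Lipolysis in the adipocyte is driven by cyclic AMP, which activates protein kinase A and through it hormone-sensitive lipase and the lipid droplet proteins. Beta-adrenergic receptors raise cyclic AMP through the stimulatory G protein, while the alpha2A-adrenergic receptor, the hydroxycarboxylic acid receptors, the adenosine A1 receptor and the prostaglandin receptor EP3 lower it through inhibitory G proteins. Natriuretic peptides act separately, through the guanylyl cyclase NPR1 and cyclic GMP, and NPR3 removes the same peptides from the circulation. In primates this natriuretic pathway is an established lipolytic route of fat.

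Counts per library summed to between 6899185 and 28270776. In 8 libraries, 2 in each group, a single gene without a symbol took 9.92% to 54.7% of the counts, against 0.879% to 2.51% in the other 16. No label names a batch. The 8 were set apart from the counts alone, by a share of that gene over 5%, and are called the library batch below. Values are given as counts per 1000000 counts of the normalized library (CPM). Differences were tested with edgeR's quasi-likelihood test over 15207 genes, and a gene was called if its fold change exceeded 1.5 and its Benjamini-Hochberg adjusted p was under 0.05, or for the interaction at an adjusted p under 0.1. Levels of different receptors are not compared with each other, because transcript lengths were not used here.

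C replicate 1, which belongs to the library batch, stood apart from all other libraries. The mean of 12 adipocyte marker genes was 6.81 on the log2(CPM + 1) scale in this library, and the next lowest of the 24 values was 8.87, in T replicate 17. FABP4, the fatty acid carrier that was the most abundant gene of that list, was at 1346 CPM in it and at 2829 CPM or more in every other library. The mean of 10 mesothelial marker genes was the highest of all, at 8.29, with ITLN1 at 35030 CPM. In the same library ADRB1 was at 0.225 CPM (4 counts), ADRB3 and ADRA2A at 0.337 CPM (6 counts each), ADORA1 at 1.07 CPM, NPR3 at 2.19 CPM and HCAR2 at 5.79 CPM, each the lowest value of its gene in the 24 animals. PTGER3, at 204 CPM, was among its highest. The T+WSD values against C of ADRB1, ADRB3, ADRA2A, PTGER3 and the called receptors are therefore also given without this animal.

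The labelled tissue was checked against markers of its cell types. Of 14 adipocyte markers, 12 had a row in the counts and none was at 0 throughout. Their mean on the log2 scale was 8.92 ± 1.05, 9.47 ± 0.46, 9.67 ± 0.44 and 9.84 ± 0.19 (C, T, WSD and T+WSD, ± SD, n = 6 each). The difference of 0.92 between T+WSD and C had an adjusted p of 0.0649 over 30 tests (two-sided exact permutation test). Mesothelial markers, which mark the cells that cover the omentum, averaged 7.09 ± 0.68 in C and 4.89 ± 0.93 in T+WSD (SD, n = 6 each). The T+WSD mean was lower by a difference of -2.20 (two-sided exact permutation test, adjusted p = 0.0325), and no T+WSD animal reached the lowest control. Of the 10 mesothelial genes tested, 8 fell in T+WSD, where 10.01% of all tested genes were called. Endothelial markers averaged 6.23 ± 0.34 in C and 6.82 ± 0.16 in T+WSD (SD, n = 6 each), a difference of 0.59 (two-sided exact permutation test, adjusted p = 0.0325), and 6 of 10 rose. Of the other lists, 3 of 12 adipocyte genes and 3 of 9 smooth muscle and pericyte genes were called higher in T+WSD than in C, 1 of 9 macrophage genes and 1 of 10 fibroblast and preadipocyte genes higher, and 2 of 5 neutrophil genes lower. The summed level of the mesothelial list ran from 2729 to 39066 CPM in C, with a median of 7599, and from 238 to 3091 CPM in T+WSD, with a median of 988. ITLN1 alone made up most of this sum in every C and T+WSD animal. It was at 35030 CPM in C replicate 1 and at 2621 CPM in T+WSD replicate 11, the animals with the highest sums. In tissue of mixed cells, fewer cells of a type and less RNA per cell cannot be told apart.

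**Figure D1:**
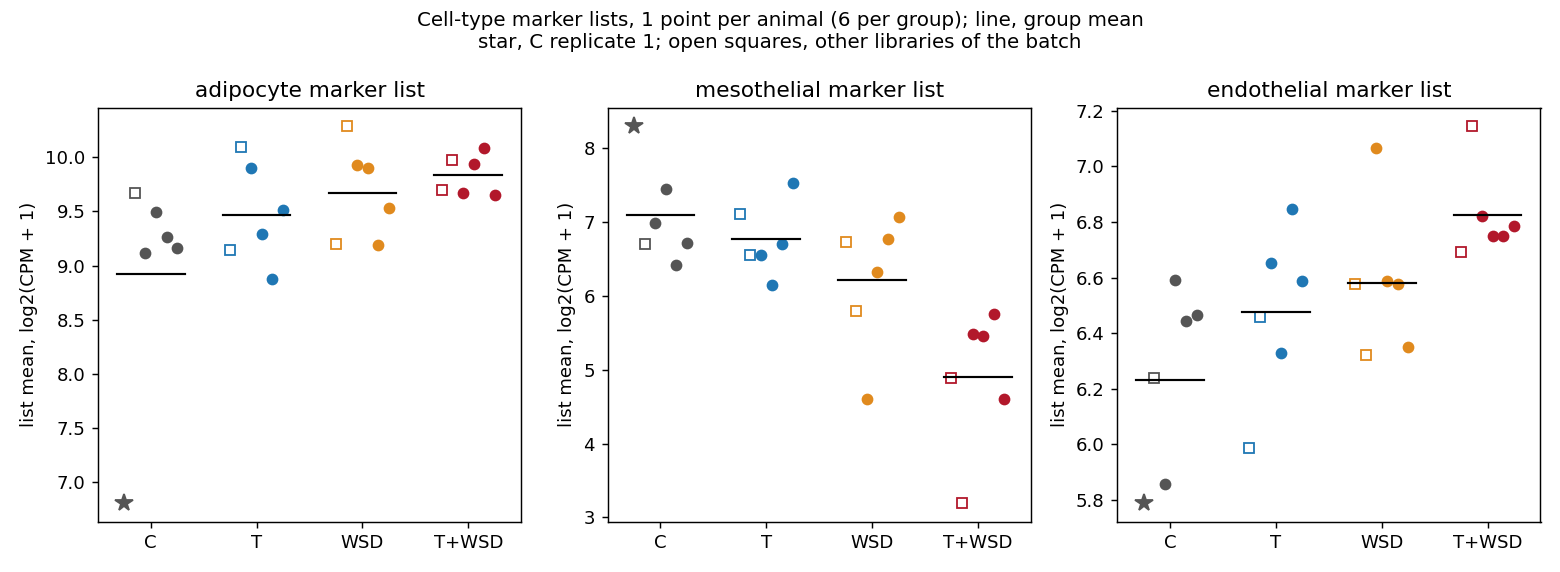
Mean log2(CPM + 1) of the adipocyte, mesothelial and endothelial marker lists, 1 point per animal (6 per group), with a line at each group mean; the star is C replicate 1 and open squares are the other libraries of the batch. C replicate 1 has the lowest adipocyte value (6.81) and the highest mesothelial value (8.29), and the T+WSD animals lie below every control in the mesothelial list.

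Of the 8 receptors, 3 were called in T+WSD against C (HCAR2, ADORA1 and NPR3, all higher), where 10.01% of all tested genes were called. HCAR2 was the only receptor matched through the paper's supplementary tables, where it is listed as upregulated in T and T+WSD. The count of 3 is therefore not free of selection on these same data. Against T, the T+WSD group had 1 called receptor (NPR3, higher) beside 3.77% of all genes, and in the diet main effect 1 was called (NPR3, higher) beside 5.30%. None was called in T+WSD against WSD, where 0.815% of genes were, or in the interaction, where 0.809% were. In those comparisons 1 and 0 of the 8 had an unadjusted edgeR p under 0.05, beside 19.98% and 13.5% of all genes, and DESeq2 called 0 receptors in each, beside 409 and 457 genes. With edgeR, T against C, WSD against C and the testosterone main effect had 0 called receptors and 0% of genes called, with 2, 2 and 1 receptors at an unadjusted p under 0.05, beside 8.63%, 18.5% and 16.5% of all genes. DESeq2 called 1 receptor in T against C and 1 in the testosterone main effect, HCAR2 in both, and 0 in WSD against C. Over all genes it called 6, 124 and 233 in these comparisons. In T+WSD against C the median log2 fold change of the 8 was 0.86, beside -0.04 over all genes, and 6 of the 8 values were positive. With the mesothelial list as a covariate the 2 middle values were 0.02 and 0.05, and with the adipocyte list -0.02 and 0.37. In the 16 libraries outside the batch they were 0.22 and 0.72. For none of the 8 did the T+WSD animals all lie above or all below the controls, which 7.61% of genes did.

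**Figure D2:**
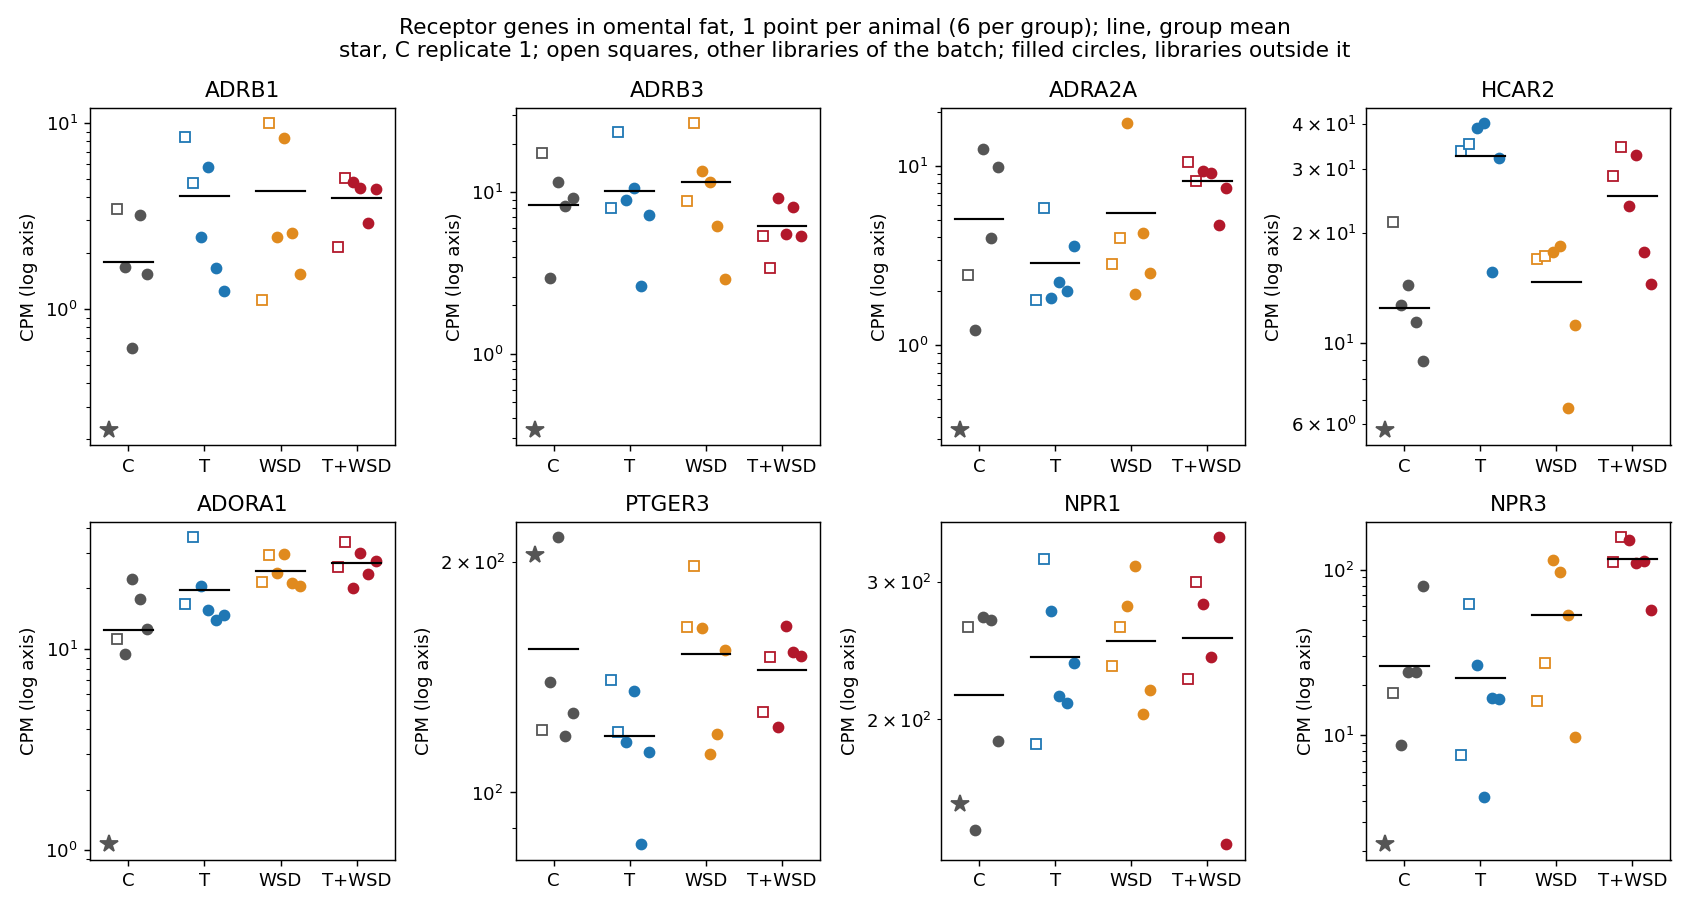
CPM on a log axis for the 8 receptor genes, 1 point per animal (6 per group), with a line at each group mean; the star is C replicate 1, open squares are the other libraries of the batch and filled circles the libraries outside it. NPR3 lies at 57.1 CPM or above in every T+WSD animal, and C replicate 1 is the lowest animal for ADRB1, ADRB3, ADRA2A, HCAR2, ADORA1 and NPR3.

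The beta-adrenergic receptors carry the lipolytic signal of noradrenaline and adrenaline. ADRB1 (ENSMMUG00000044756) ranged from 0.225 to 3.45 CPM in C (median 1.62), from 1.25 to 8.37 in T (median 3.60), from 1.13 to 10.03 in WSD (median 2.51) and from 2.15 to 5.09 in T+WSD (median 4.44). Its counts were low, from 4 to 212 per animal. The 4 ranges overlapped, and 4 of 6 T+WSD animals lay above every control. Against C the log2 fold changes of T, WSD and T+WSD were 1.21, 1.31 and 1.19 (standard error 0.59 to 0.60), with edgeR adjusted p of 0.579, 0.242 and 0.171. Without C replicate 1 these values were 0.99, 1.08 and 0.98.

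ADRB3 (ENSMMUG00000005876) encodes the beta3-adrenergic receptor, the form most confined to adipocytes in rodents. It ranged from 0.337 to 17.6 CPM in C, from 2.64 to 23.5 in T, from 2.91 to 27.0 in WSD and from 3.39 to 9.24 in T+WSD, with medians of 8.76, 8.48, 10.2 and 5.45. No group was separated from another. T+WSD was the group with the narrowest spread (SD 2.12, against 6.15 in C). The log2 fold change of T+WSD was -0.38 against C (95% confidence interval -1.60 to 0.84, adjusted p = 0.712) and -0.87 against WSD (-2.10 to 0.35, adjusted p = 0.425). Without C replicate 1 the value against C was -0.62. In the 16 libraries outside the batch the values were -0.17 against C and -0.27 against WSD.

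ADRA2A (ENSMMUG00000041307) encodes the alpha2A-adrenergic receptor, which binds the same catecholamines and opposes lipolysis. It ranged from 0.337 to 12.3 CPM in C (median 3.21), from 1.79 to 5.84 in T (median 2.12), from 1.93 to 17.3 in WSD (median 3.37) and from 4.64 to 10.5 in T+WSD (median 8.67). In 5 of 6 T+WSD animals it was above every T animal, while C and WSD animals lay both below and above the T+WSD range. The log2 fold change of T+WSD against T was 1.52 (edgeR adjusted p = 0.128, standard error 0.62). With T and T+WSD fitted alone it was 1.56 with an adjusted p of 0.0102, which passes the threshold. It was 1.14 with the adipocyte list as a covariate (adjusted p = 0.205) and 0.43 with the mesothelial list (adjusted p = 0.939). Against C the value was 0.68 (standard error 0.61, adjusted p = 0.470), and 0.46 without C replicate 1.

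Within an animal, the counts of ADRA2A divided by those of ADRB3 do not depend on the normalization. This ratio ran from 0.140 to 1.07 in C, from 0.204 to 0.756 in T, from 0.146 to 1.28 in WSD and from 0.574 to 2.42 in T+WSD, with medians of 0.739, 0.236, 0.497 and 1.53. The highest ratios were those of T+WSD animals, and the ranges overlapped. The ratio was chosen after its values were seen and was not tested.

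HCAR2 (ENSMMUG00000019939) encodes the receptor for the ketone body beta-hydroxybutyrate and for nicotinic acid, which lowers cyclic AMP in adipocytes. Its symbol came only from the paper's supplementary tables. The paper lists HCAR2 there as upregulated in T and in T+WSD, so whether it was matched could depend on its result. A close relative, HCAR3, was not analysed here, and how reads from near-identical copies were counted is not given in the sources used here, so its level is uncertain to that extent. HCAR2 ranged from 5.79 to 21.5 CPM in C (median 12.1), from 15.6 to 40.2 in T (median 34.4), from 6.67 to 18.5 in WSD (median 17.2) and from 14.6 to 34.5 in T+WSD (median 26.3). The animals with testosterone lay mostly above those without, on both diets. T replicate 17 and T+WSD replicates 11 and 12 lay within the range of the animals without testosterone.

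Over both diets, 9 of the 12 animals with testosterone exceeded every one of the 12 without it. The testosterone main effect on HCAR2 was a log2 fold change of 1.09 (standard error 0.21, 95% confidence interval 0.66 to 1.52). Its unadjusted p was 2.77e-05 and its edgeR adjusted p 0.123, so it was not called. DESeq2's Wald test gave 1.10 with an adjusted p of 0.00105, and without C replicate 2 edgeR gave 1.21 with an adjusted p of 0.0350, both past the threshold. It was not called in the other 23 removals of an animal (adjusted p up to 0.231). By diet, testosterone gave a log2 fold change of 1.41 under chow (T against C, edgeR adjusted p = 0.231, DESeq2 0.00568) and 0.78 in T+WSD against WSD (adjusted p = 0.140, standard error 0.29). The interaction, which compares the effect of testosterone in the 2 diets, was -0.63 (standard error 0.41, adjusted p = 0.543). The diet main effect was -0.06 (95% confidence interval -0.49 to 0.37). In the 16 libraries outside the batch the testosterone main effect was 1.08 (adjusted p = 0.243). Within the batch, the 2 libraries of each group averaged 13.6, 34.4, 17.2 and 31.6 CPM (C, T, WSD and T+WSD).

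In T+WSD, HCAR2 rose against C with a log2 fold change of 1.03 (edgeR adjusted p = 0.0211). This call ended without C replicate 1 (0.90, adjusted p = 0.0562), without T+WSD replicate 8 (adjusted p = 0.0509) and without T+WSD replicate 10 (adjusted p = 0.0508). It also ended in the 16 libraries outside the batch (0.92, adjusted p = 0.158).

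ADORA1 (ENSMMUG00000008714) encodes the adenosine A1 receptor, through which adenosine released in fat restrains lipolysis. It ranged from 1.07 to 22.3 CPM in C (median 11.9), from 13.9 to 35.9 in T (median 16.2), from 20.7 to 29.8 in WSD (median 22.7) and from 20.1 to 33.9 in T+WSD (median 26.4). Every animal on the Western-style diet was at 20.1 CPM or above, a level reached on chow by C replicate 4 and T replicates 14 and 15. In T+WSD it exceeded every control in 5 of 6 animals. Against C, ADORA1 rose in T+WSD with a log2 fold change of 1.10 (edgeR adjusted p = 0.0456, standard error 0.37), and WSD had 0.97 (standard error 0.37, adjusted p = 0.184). Without C replicate 1 these were 0.88 (adjusted p = 0.0298) and 0.74 (adjusted p = 0.358). In the 16 libraries outside the batch the T+WSD value was 0.72 (adjusted p = 0.1105). The batch held 2 libraries a group, averaging 6.12, 26.3, 25.5 and 29.7 CPM (C, T, WSD and T+WSD). Its C libraries were at 1.07 CPM, in replicate 1, and 11.2 CPM.

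The T+WSD call of ADORA1 was near the threshold. It held when WSD replicate 20, T replicate 14, 17 or 18, or C replicate 1, 4 or 5 was left out, and ended when any of the 17 other animals was (adjusted p up to 0.0952). It also ended without the filter (adjusted p = 0.0785), with only the 2 groups fitted (0.112) and with the batch as a covariate (0.0530). The diet main effect on ADORA1 was 0.71 (standard error 0.26, adjusted p = 0.0750) and was not called. It passed the threshold without C replicate 1 (0.60, adjusted p = 0.0343), in the 16 libraries outside the batch (0.64, adjusted p = 0.0378) and with DESeq2 (0.73, adjusted p = 0.0386). It was also past it without C replicate 4 or T replicate 14. T+WSD and WSD differed by 0.13 (95% confidence interval -0.64 to 0.89).

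PTGER3 (ENSMMUG00000017309) encodes EP3, the receptor through which prostaglandin E2 inhibits lipolysis. Its group means were 154 ± 43.7, 119 ± 19.4, 152 ± 31.6 and 144 ± 16.5 CPM (C, T, WSD and T+WSD, ± SD, n = 6 each). No called difference was found in any of the 8 comparisons. T was the lowest group, with 3 of 6 animals below every control and a log2 fold change against C of -0.38 (edgeR adjusted p = 0.548, standard error 0.16). Against C the T+WSD value was -0.09 (95% confidence interval -0.43 to 0.24). It was 0.02, on the other side of 0, without C replicate 1 and also with the mesothelial list as a covariate.

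NPR1 (ENSMMUG00000008153) encodes the guanylyl cyclase that transmits the lipolytic signal of atrial and B-type natriuretic peptides. Its group means were 215 ± 59.1, 241 ± 49.6, 252 ± 41.5 and 255 ± 70.8 CPM in the same order (± SD, n = 6 each), and the ranges overlapped in all 4 groups. The 8 fitted effects ran from -0.15 to 0.24 on the log2 scale. In T+WSD against C the log2 fold change was 0.24 (95% confidence interval -0.16 to 0.65, edgeR adjusted p = 0.417).

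NPR3 (ENSMMUG00000013366), the clearance receptor that takes up and degrades natriuretic peptides, had the largest log2 fold changes of the 8 receptors in T+WSD against C, against T and against WSD and in the diet main effect. It ranged from 2.19 to 79.9 CPM in C (median 21.1), from 4.25 to 62.1 in T (median 16.7), from 9.81 to 114 in WSD (median 40.4) and from 57.1 to 157 in T+WSD (median 112). T+WSD was the one group in which every animal was high. In C only replicate 6, and in T only replicate 14, came within its range, while WSD animals were spread over both ends. Against C, NPR3 rose in T+WSD with a log2 fold change of 2.14 (standard error 0.70, 95% confidence interval 0.70 to 3.59, edgeR adjusted p = 0.0379). Against T it rose by 2.40 (standard error 0.71, adjusted p = 0.0458), and in each of these comparisons 5 of 6 T+WSD animals exceeded the whole other group. Over both hormone states, the diet main effect was 1.71 (standard error 0.49, 95% confidence interval 0.70 to 2.72, adjusted p = 0.0296), with 7 of 12 animals on the diet above all 12 on chow.

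T+WSD against WSD gave 1.12 for NPR3 (standard error 0.68, adjusted p = 0.361), WSD against C gave 1.02 (standard error 0.68, adjusted p = 0.423) and T against C gave -0.25 (standard error 0.68, adjusted p = 0.946). The interaction was 1.38 (95% confidence interval -0.60 to 3.36, adjusted p = 0.571), so the response to the diet was not shown to differ with testosterone. The 3 comparisons against C share the same 6 controls. Without C replicate 1, NPR3 was at 0.80 in WSD against C and at -0.49 in T against C. In the 16 libraries outside the batch it was at -1.09 in T against C and at 0.65 in T+WSD against WSD.

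Each of the 3 calls of NPR3 ended in some removals of 1 animal, while the log2 fold changes stayed at 1.52 or above. For the diet main effect it held in 22 of 24 removals. The call in T+WSD against C ended when C replicate 1, 2, 3, 4 or 5 or T+WSD replicate 7, 8, 9, 10 or 11 was left out. Without C replicate 1 the value was 1.93 (adjusted p = 0.0714), without C replicate 3 the adjusted p was 0.0834, and without C replicate 6 the value was 2.91 (adjusted p = 0.00967). The call against T held when WSD replicate 19, 20, 21, 22 or 24, T replicate 14, or C replicate 1, 3, 5 or 6 was left out, and ended for the 14 other animals (adjusted p up to 0.0857). Without T replicate 14 its value was 3.01. That of the diet main effect ended without C replicate 3 (adjusted p = 0.0501) or WSD replicate 21 (1.52, adjusted p = 0.0607), and without C replicate 1 it was 1.61 (adjusted p = 0.0389).

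In the 16 libraries outside the batch the diet main effect on NPR3 was 1.89 (adjusted p = 0.0463), T+WSD against C was 1.67 (adjusted p = 0.202) and T+WSD against T was 2.76 (adjusted p = 0.0580). Within the batch, its 2 libraries per group averaged 10.1, 34.8, 21.6 and 134 CPM (C, T, WSD and T+WSD). T+WSD was the highest group in both sets of libraries. All 3 NPR3 calls ended without the filter (adjusted p = 0.0749, 0.0756 and 0.0547 against C, against T and for diet), and that against T with the batch as a covariate (0.0535).

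The pair of natriuretic receptors can be read within each animal as the ratio of NPR3 to NPR1 counts. It ran from 0.0141 to 0.426 in C (median 0.0789), from 0.0198 to 0.194 in T (median 0.0750), from 0.0450 to 0.409 in WSD (median 0.183) and from 0.328 to 0.540 in T+WSD (median 0.474). Every T+WSD animal lay above every T animal, and the T+WSD values varied least (SD 0.27 on the log2 scale, against 1.57 in C). The ratio was chosen after its values were seen and was not tested.

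**Figure D3:**
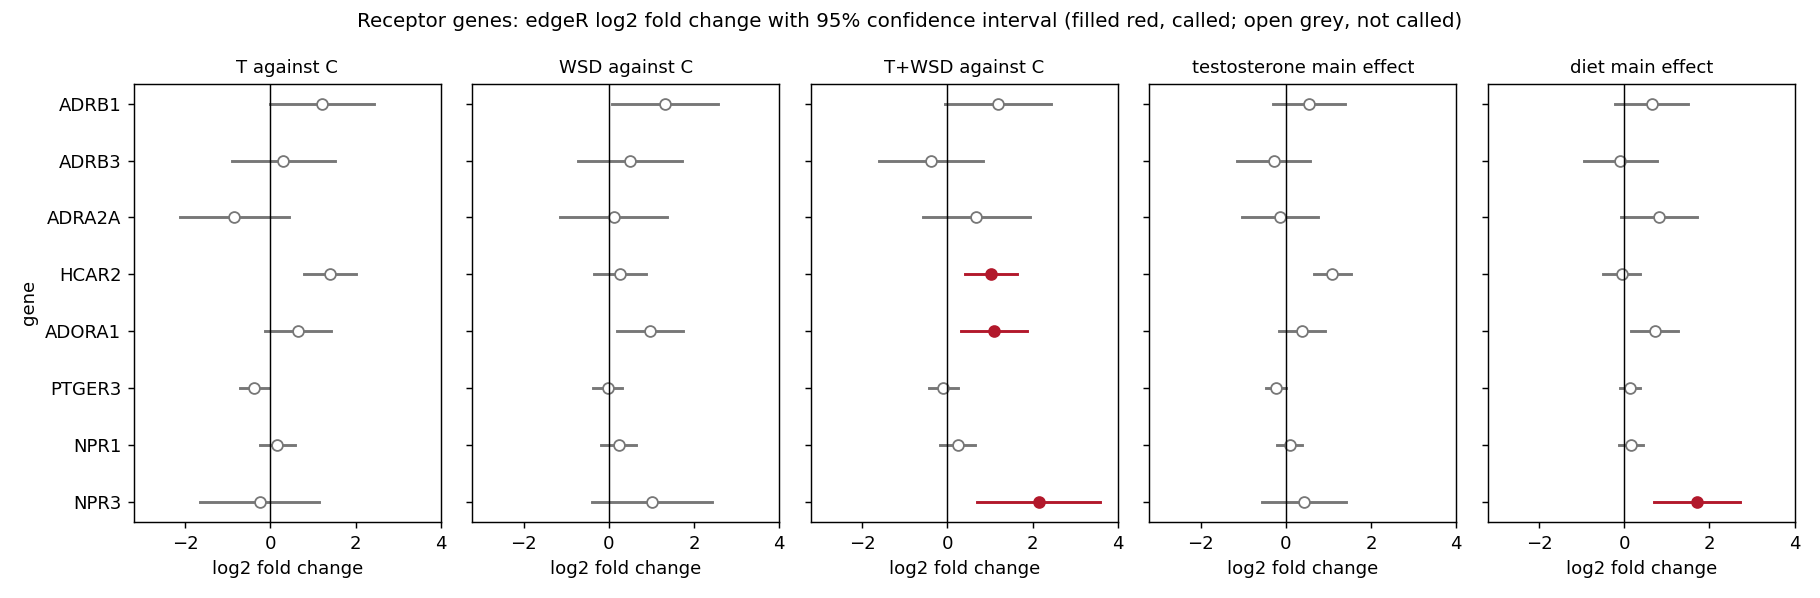
edgeR log2 fold change (point) and 95% confidence interval (line) of the 8 receptor genes in 5 comparisons, from 24 animals; filled red points were called and open grey points were not. NPR3 was called in T+WSD against C (2.14) and in the diet main effect (1.71), HCAR2 and ADORA1 in T+WSD against C, and the interval of HCAR2 in the testosterone main effect (0.66 to 1.52) lies above 0 although its adjusted p was 0.123.

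The receptor results were also fitted with the marker lists as covariates. With the mean of the adipocyte list as a covariate, the values of T+WSD against C were 0.58 for HCAR2 (adjusted p = 0.248), 0.37 for ADORA1 (adjusted p = 0.410) and 1.12 for NPR3 (adjusted p = 0.372), while NPR3 in T+WSD against T was 2.10 and still called (adjusted p = 0.0429). The diet main effect on NPR3 was then 1.14 and not called (adjusted p = 0.227). With the mesothelial list as a covariate the 3 values against C were 0.44, 0.45 and 0.92, and none was called. NPR3 was then at 1.25 in T+WSD against T (adjusted p = 0.764) and at 0.83 in the diet main effect (adjusted p = 0.977). In that fit 0 of all genes were called in T+WSD against C, and the list levels of these 2 groups did not overlap. Of the receptors not called in T+WSD against C, ADRB1 was at 0.44 and 0.02 with the adipocyte and the mesothelial list. In the same order ADRB3 was at -1.36 (adjusted p = 0.0846) and -1.21, and ADRA2A at -0.10 and -0.55, on the other side of 0. NPR1 was at -0.05, also on the other side of 0, and at 0.05. None of these was called. HCAR2's testosterone main effect was 0.93 with the adipocyte list (adjusted p = 0.128) and 0.88 with the mesothelial list (adjusted p = 0.878). What part the make-up of the tissue had in these results was not tested beyond these fits.

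**Figure D4:**
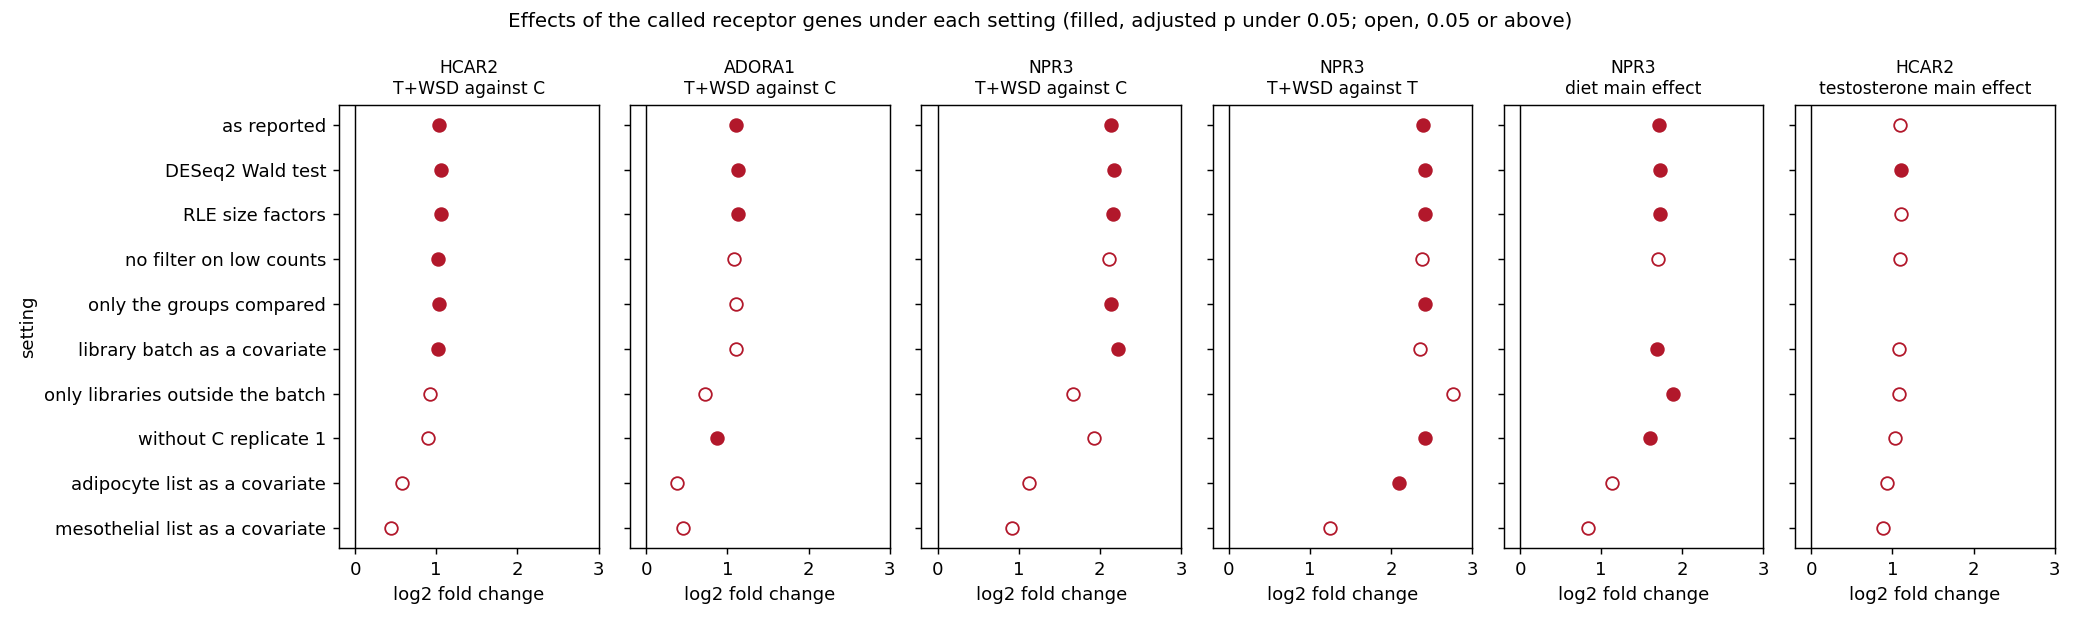
Log2 fold change of the called receptor genes, and of HCAR2 in the testosterone main effect, as reported and under 9 other settings (8 for the main effects, which need all groups); filled points have an adjusted p under 0.05 and open points do not. Every value stayed above 0, the adipocyte and mesothelial covariates gave the lowest values for each T+WSD against C result, and HCAR2 in the testosterone main effect was past the threshold with DESeq2 alone among these settings.

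For each called receptor, the genes with the most similar levels were sought by Pearson's r of log2 CPM over the 24 animals. ADORA1 was followed most closely by ADCY5, an adenylyl cyclase (r = 0.96, Spearman's rho = 0.87), FAT2, an atypical cadherin (r = 0.95), and APOE, an apolipoprotein (r = 0.95). These values rest in part on low animals. Without C replicates 1 and 3, the 2 animals farthest from the median of ADORA1, they were 0.81, 0.72 and 0.77. NPR3 was followed by GLCE, an enzyme of heparan sulfate synthesis, LEP, the adipocyte hormone leptin, and PCLO, a scaffold protein, each with r = 0.95. For LEP rho was 0.98, r was 0.97 without C replicate 1 and T replicate 16, and r was 0.92 once the group means were removed. LEP is a gene of the adipocyte list. HCAR2 had looser partners, FAM89A (r = 0.80), the transcription factor STAT5A (r = 0.79) and CNTFR, a cytokine receptor subunit (r = 0.79). With group means removed these were 0.77, 0.78 and 0.71, and without C replicate 1 and WSD replicate 23 they were 0.76, 0.71 and 0.65. These r values were used only to order genes.

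Related receptors of fat were covered by a list of 22 genes, of which 13 were tested. Of these, 2 rose and 1 fell in T+WSD against C, and the list's median log2 fold change was 0.18 beside -0.04 over all genes. The 3 called of 13 stand beside 10.01% of all tested genes. PTGER2, the EP2 receptor that raises cyclic AMP in response to prostaglandin E2, averaged 2.69 ± 1.25 CPM in C and 6.64 ± 2.25 CPM in T+WSD (± SD, n = 6 each). It rose by 1.30 on the log2 scale (edgeR adjusted p = 0.00940), and 4 of 6 animals exceeded every control. NPY1R, the neuropeptide Y receptor that inhibits lipolysis, rose by 0.75 (adjusted p = 0.0371). PTGFR, the receptor of prostaglandin F, ranged from 65.0 to 313 CPM in C and from 12.4 to 42.7 CPM in T+WSD. It fell by 2.19 on the log2 scale (adjusted p = 0.00976), and the groups did not overlap. PTGER2 and PTGFR were also called in the diet main effect (0.70 and -1.63, adjusted p = 0.0401 and 0.0113), and PTGFR in T+WSD against T (-1.95, adjusted p = 0.0329). With the mesothelial list as a covariate, PTGFR in T+WSD against C was at -0.14 and PTGER2 at 0.34.

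The signal-coupling list of G proteins, adenylyl cyclases and protein kinase subunits had 17 of 21 genes tested, and 2 rose and 1 fell in T+WSD against C, beside 10.01% of all genes called (list median 0.15, all genes -0.04). ADCY4, an adenylyl cyclase, went from 25.5 ± 3.57 to 41.8 ± 5.76 CPM (SD, n = 6 each), with all 6 T+WSD animals above every control and every WSD animal. The log2 fold change was 0.71 against C (edgeR adjusted p = 0.00294) and 0.64 against WSD (adjusted p = 0.0227). ADCY1 rose by 0.99 against C (adjusted p = 0.0365) and by 0.74 in the diet main effect (adjusted p = 0.0371). PRKAR1A, a regulatory subunit of protein kinase A, fell by 0.61 (adjusted p = 0.00560), and all 6 T+WSD animals lay below every control. PRKAR2B, the regulatory subunit typical of adipocytes, was at 0.46 (adjusted p = 0.344). With the mesothelial list as a covariate no gene was called in T+WSD against C.

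Phosphodiesterases end the cyclic AMP and cyclic GMP signals, and all 17 genes of that list with a row in the counts were tested. Their median log2 fold change in T+WSD against C was 0.44 beside -0.04 over all genes, with 3 of 17 called, all higher, beside 10.01% of all genes. The mesothelial and endothelial lists also differed in this comparison (-2.20 and 0.59). With the mesothelial list as a covariate no gene was called in it. PDE3A rose from 37.4 ± 6.30 to 58.3 ± 5.85 CPM (SD, n = 6 each), and all 6 T+WSD animals exceeded every control (log2 fold change 0.64, edgeR adjusted p = 0.0100). PDE1B rose by 0.82 (adjusted p = 0.0111) and PDE2A, which cyclic GMP stimulates, by 0.65 (adjusted p = 0.0206). PDE7A was called in T+WSD against T (0.63, adjusted p = 0.0183) and against WSD (0.63, adjusted p = 0.0370). PDE3B, the phosphodiesterase through which insulin restrains lipolysis, averaged 157 ± 83.2, 265 ± 133, 189 ± 84.7 and 135 ± 31.1 CPM (C, T, WSD and T+WSD, ± SD, n = 6 each). The log2 fold changes were -0.21 in T+WSD against C (adjusted p = 0.732), -0.97 in T+WSD against T (adjusted p = 0.0947) and -1.25 for the interaction (adjusted p = 0.276).

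Receptor desensitisation, by arrestins and receptor kinases, had a median of -0.08 in T+WSD against C. With edgeR, 0 of its 8 tested genes were called in any comparison. An unadjusted edgeR p under 0.05 was found for 3 of them in T+WSD against C, beside 32.1% of all genes. DESeq2 called 1 of the 8 there, beside 1806 genes, and 0 in the other comparisons. Among lipases and lipid droplet genes, 1 of 9 tested was called in T+WSD against C, beside 10.01% of all genes. This was FABP4, which went from 3703 ± 1434 to 6537 ± 1571 CPM in T+WSD (± SD, n = 6 each, log2 fold change 0.82, edgeR adjusted p = 0.0429). That list's median was 0.64 beside -0.04 over all genes, and FABP4 is also an adipocyte marker, as is CIDEC. Without C replicate 1 the FABP4 value was 0.66 (adjusted p = 0.0824). LIPE, hormone-sensitive lipase, averaged 1098 ± 657, 1867 ± 672, 1626 ± 292 and 1839 ± 433 CPM (C, T, WSD and T+WSD, ± SD, n = 6 each), and was at 0.74 in T+WSD against C (adjusted p = 0.0947). PNPLA2, the first lipase of the cascade, was not analysed here.

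The last list held genes that make or remove the ligands of these receptors, with 16 of 22 tested. Against C, 1 rose and 4 fell in T+WSD, beside 10.01% of all genes called, and the list median was -0.40 beside -0.04 over all genes. MME encodes neprilysin, a peptidase that degrades natriuretic peptides. It ranged from 8.75 to 72.7 CPM in C, from 36.5 to 91.6 in T, from 10.6 to 97.2 in WSD and from 6.22 to 22.1 in T+WSD. All 6 T+WSD animals lay below every T animal, and the other groups were spread widely. MME fell in T+WSD by 1.66 against C (edgeR adjusted p = 0.0242), by 2.02 against WSD (adjusted p = 0.0386) and by 2.31 against T (adjusted p = 0.0139). With edgeR it was the one gene of the 6 lists called in the interaction (-2.67, standard error 0.68, adjusted p = 0.0972), beside 0.809% of all genes. There DESeq2 called 1 gene of cyclic nucleotide breakdown and 2 of ligand supply, beside 457 genes in all.

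NPPC, which encodes C-type natriuretic peptide, had 3 to 25 counts in C and 0 to 7 in T+WSD. It fell by 2.86 on the log2 scale (95% confidence interval -4.79 to -0.92, edgeR adjusted p = 0.0384), and without C replicate 2 it was at -1.73 (adjusted p = 0.136), without T+WSD replicate 11 at -3.65. PTGS2, the inducible cyclooxygenase of prostaglandin synthesis, fell by 2.34 (adjusted p = 0.0223). Without C replicate 1 it was at -1.52 (adjusted p = 0.112).

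In the same list, ENTPD1, an ectoenzyme that breaks down extracellular ATP on the way to adenosine, fell by 1.06 in T+WSD against C (adjusted p = 0.0165) and by 0.74 in the diet main effect (adjusted p = 0.0250). ADK, the kinase that removes adenosine inside the cell, rose by 0.82 against C (adjusted p = 0.00553), by 0.80 against T (adjusted p = 0.0144) and by 0.63 in the diet main effect (adjusted p = 0.00785). It was above every control in all 6 T+WSD animals. BDH1, which interconverts ketone bodies, fell by 1.41 in T+WSD against T (adjusted p = 0.0239). With the mesothelial list as a covariate, ENTPD1 in T+WSD against C was at 0.13, on the other side of 0, PTGS2 at -0.32 and MME at -1.20, and none of them was called.

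Of the calls in these lists, those of PTGFR, PTGER2, ADCY4, PDE1B and ADK in T+WSD against C were kept whichever animal was left out. PDE3A ended without C replicate 3 (0.58, fold change under 1.5), PTGS2 and ENTPD1 without C replicate 1 (ENTPD1 -0.81, adjusted p = 0.0615), and PDE2A and the others in more than 1 of the 24 removals. These were 3 for PDE2A, 4 for PRKAR1A, 4 for MME, 5 for NPPC, 7 for NPY1R, 8 for ADCY1 and 9 for FABP4. The interaction of MME ended in 20 of 24 (adjusted p up to 0.173), and MME in T+WSD against WSD in 10 of 24. In the diet main effect the call of PTGER2 ended in 14 of 24 (adjusted p up to 0.0697), that of ADCY1 in 13 (up to 0.0729), that of ADK in 1 and those of PTGFR and ENTPD1 in none. In T+WSD against T, the calls of MME and ADK were kept, and those of PDE7A, BDH1 and PTGFR ended in 1, 4 and 7 of 24. Against WSD, ADCY4 ended in 5 and PDE7A in 8.

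**Figure D5:**
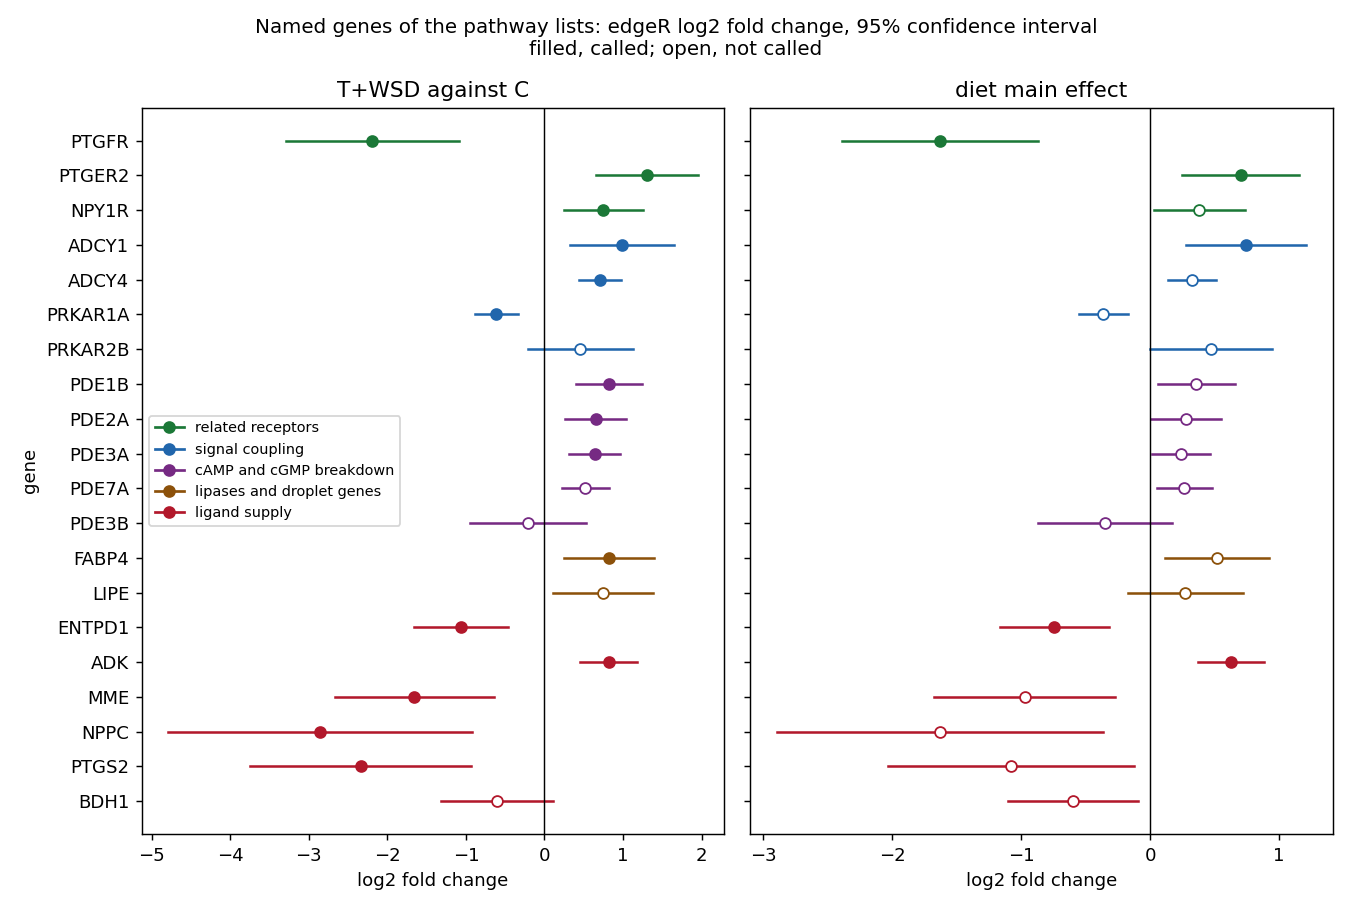
edgeR log2 fold change (point) and 95% confidence interval (line) of the named genes of 5 pathway lists in T+WSD against C and in the diet main effect, from 24 animals; filled points were called and open points were not, and colours mark the lists. The 3 called phosphodiesterases lie above 0, and PTGFR, PRKAR1A, ENTPD1, MME, NPPC and PTGS2 lie below it in T+WSD against C.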

How the data were processed

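RNA from 24 omental WAT biopsies was sequenced as single reads from ribosomal-RNA-depleted libraries. The authors trimmed reads with Trimmomatic 0.36, aligned them with STAR 2.5.2b and deposited whole-number counts per gene. Whether counting used strand is not given in the sources used here. The count table holds 32386 genes, 7255 of them at 0 in every library, and no 2 libraries were identical. A symbol was assigned to 12624 tested genes by a gene name table, or in 210 cases by supplementary tables of the paper. Counts were normalized by TMM and tested in one edgeR 4.0.16 fit (R 4.3.3) of 4 group means, after a filter with a minimum count of 10 (minimum total 15). Main effects average over the other factor. The step was tested on simulated data. Marker lists (mean log2(CPM + 1)) were compared with C by exact permutation, adjusted over 30 tests. The alternatives were DESeq2 1.42.0, RLE size factors, no filter, only the groups compared, the library batch as a covariate or left out, marker-list covariates, no fold threshold, and each animal left out.

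Named genes were the 9 receptors, every called gene of the 6 pathway lists (at most 5 per list and comparison), PDE3B, LIPE, PNPLA2 and PRKAR2B, and for each called receptor the 3 genes of highest r. Another gene of this rule is not reported here. The members and lists were chosen with earlier results of these data known. Marker lists of erythroid cells, plasma and B cells, NK and T cells, neutrophils, macrophages, pericytes and smooth muscle, and preadipocytes and fibroblasts had no adjusted p under 0.05 against C. Counts of 3 correspond to 0.0938 to 0.848 CPM, and floors cover counting error only.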

Additional observations from a re-analysis of the deposited data

Results flagged for a closer look

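In 4 of the 32 combinations of receptor and group, 1 animal lay far from the other 5, on the CPM scale. Chance gives about 1 in 20 if values are normally distributed, which was not tested. ADRA2A was at 17.3 CPM in WSD replicate 21, and the next highest WSD animal was at 4.22 CPM. HCAR2 was at 15.6 CPM in T replicate 17, below the next lowest T animal at 32.1 CPM. ADORA1 was at 35.9 CPM in T replicate 14, above the next T animal at 20.5 CPM. NPR3 was at 79.9 CPM in C replicate 6, above the next control at 24.1 CPM. The same rule on log2 CPM, chosen after seeing the data, also marked 4 combinations. They were ADRA2A in WSD replicate 21, HCAR2 in T replicate 17, ADORA1 in C replicate 1 (1.07 CPM, next control 9.47 CPM) and NPR3 in T+WSD replicate 12 (57.1 CPM, next T+WSD animal 110 CPM). ADORA1 in T replicate 14 and NPR3 in C replicate 6 were not marked on that scale. The cause of these values was not tested.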

How the results depend on the processing

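The 5 calls of receptors and both HCAR2 testosterone values kept their direction under every alternative. Counts of called receptors moved as follows. With DESeq2, 1 was called in T against C (6 genes in all, against 0), 1 in the testosterone main effect (124 genes, against 0) and 2 in the diet main effect. Without the filter the counts were 1 in T+WSD against C, 0 in T+WSD against T and 0 for diet. With only the groups compared, 2 were called in T+WSD against T and 2 in T+WSD against C. With the batch as a covariate these were 0 and 2. Outside the batch, with 4 animals per group, 0 were called in T+WSD against C, 0 in T+WSD against T and 2 for diet. With the mesothelial covariate all 3 counts were 0, and with the adipocyte covariate 0 were called in T+WSD against C and 0 for diet. With each animal left out in turn, the counts ran from 0 to 3 in T+WSD against C, 0 to 1 in T+WSD against T, 0 to 1 for testosterone and 0 to 2 for diet, and were 0 throughout in the other 4 comparisons. HCAR2 in T against C had adjusted p from 0.0946 to 0.698 in these fits, and 0.00568 with DESeq2. The causes were not tested.

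Of all genes in T+WSD against C, 1522 were called, against 78 outside the batch, 0 with the mesothelial and 7 with the adipocyte covariate, 2603 with no fold threshold and 900 without C replicate 1. In T+WSD against T it was 574, against 994 with DESeq2, 1059 with only the groups compared, 308 outside the batch, 0 with the mesothelial covariate, 988 with no fold threshold and at least 238 with 1 animal left out. For diet it was 806, against 443, 2, 18, 1811 and 477 (outside the batch, mesothelial, adipocyte, no fold threshold, without WSD replicate 21). In T+WSD against WSD it was 124, against 409 with DESeq2, 68 without the filter, 46 with only the groups compared, 0 outside the batch, 1 with the mesothelial and 307 with the adipocyte covariate, 254 with no fold threshold and 9 to 448 with 1 animal left out. For the interaction it was 123, against 457, 38, 2, 71 and 44 (DESeq2, no filter, outside the batch, mesothelial, adjusted p under 0.05) and 40 to 527 with 1 animal left out. In WSD against C it was 0, against 233 with DESeq2, 1 with only the groups compared, 1 with the batch as a covariate and up to 59 with 1 animal left out.

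Among the pathway genes 1 result changed direction, ENTPD1 in T+WSD against C, at 0.13 with the mesothelial covariate. In T+WSD against C, PTGFR, PTGER2, ADCY4, PDE1B and ADK were called with each of the 24 animals left out. All of these calls ended with the mesothelial covariate, a fit in which no gene was called in that comparison. RLE size factors moved the median of all genes by at most 0.02 on the log2 scale. No paired analysis was made, since the paper describes different females assigned at random to the groups and the labels give no pairing. ADRB1 is the receptor with the fewest counts, 1554 over all animals. Its lowest value, 4 counts, was in C replicate 1, a library of 17538167 counts.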
